A study of Mus musculus with 4 samples.

Results

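*Csrnp1*, *Csrnp2*, *Csrnp3*, *Ier2*, *Ier3*, *Ier5*, *Ier5l*, *Arc* and *Npas4* are immediate early genes or close relatives of them, and their transcripts were followed in mouse glial cultures deprived of oxygen and glucose (OGD) for 15 h. They were chosen by gene name, with earlier results of these data known. Every non-control probe that the array files assign to 1 of these 9 names was taken, which gave 10 probes of 39429 on the array and 9 genes of 29676 gene names. *Ier5* had 2 probes and each other gene had 1. The comparison asks how these genes stood in astrocyte-enriched cultures (AECs) under OGD, set against untreated AECs.

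The untreated group held 2 AECs and the OGD group held 2 AECs kept without glucose under hypoxia for 15 h. Both groups were mixed glia from the cortex of newborn ICR mice, cleared of microglia with PLX3397, which blocks the receptor CSF1R that microglia need, so that other glia remained beside astrocytes. Total RNA was labeled with Cy3 and each sample was hybridized to its own single-color array. The 4 arrays shared 1 slide and 1 scan.

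Immediate early genes are switched on by signals that reach factors already present in the cell, so that their transcription needs no new protein. The CSRNP proteins are nuclear, and *Csrnp1* was first described as a gene induced by axin. IER2, IER5 and IER5L share an amino-terminal domain, and IER5 binds heat shock factor 1. IER3, which has a different structure, takes part in cell survival. ARC acts at synapses, where it drives internalization of AMPA receptors, and NPAS4 is a transcription factor with a bHLH-PAS domain that neurons induce on calcium entry.

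The probes that the results turn on are given here with the first 30 of their 60 bases, written 5′ to 3′ on the strand of the transcript. Both *Ier5* probes are shown because they gave different values.
Csrnp1: gtggctcttgagagctcttacgcccttcat
Arc: tggagatctcaagagagtgtggctatcccc
Ier5, upstream probe: acgtggcaaacctcatcagcatcttcgggt
Ier5, downstream probe: gcaagggagctgttacttttctactccatc
On mm9, the build of the files, the *Csrnp1* probe lies at chr9:119880457-119880516 and the *Arc* probe at chr15:74499592-74499651, both on the minus strand. *Ier5* is also on the minus strand of chromosome 1. Its upstream probe lies at chr1:156945765-156945824 and begins at base 942 of the transcript NM_010500. Its downstream probe lies at chr1:156943530-156943589 and begins at base 3177. Whether a probe lies in coding sequence or in an untranslated region was not analysed here.

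RefSeq promoter windows on GRCm38.p6, from 250 bases before to 50 bases after a start site, were found for 7 of the 9 genes, in 11 windows. *Ier2* and *Arc* had no window. The 250 bases before the start are shown for *Csrnp1* and *Ier3*, the genes with a window whose signal rose most, and for *Npas4*, which neurons induce and which was not called here. Of 4 *Csrnp1* windows the one farthest upstream is shown.
Csrnp1, minus strand, chr9:119984743-119984992: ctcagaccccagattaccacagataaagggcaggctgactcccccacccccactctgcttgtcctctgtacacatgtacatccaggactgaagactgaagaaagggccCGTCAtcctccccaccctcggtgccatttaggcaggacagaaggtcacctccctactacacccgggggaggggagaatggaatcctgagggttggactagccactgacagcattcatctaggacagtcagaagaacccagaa
Ier3, plus strand, chr17:35821463-35821712: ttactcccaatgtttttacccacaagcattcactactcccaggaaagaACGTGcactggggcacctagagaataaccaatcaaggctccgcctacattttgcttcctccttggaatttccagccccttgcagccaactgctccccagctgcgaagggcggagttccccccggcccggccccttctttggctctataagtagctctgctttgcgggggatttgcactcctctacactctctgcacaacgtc
Npas4, minus strand, chr19:4989972-4990221: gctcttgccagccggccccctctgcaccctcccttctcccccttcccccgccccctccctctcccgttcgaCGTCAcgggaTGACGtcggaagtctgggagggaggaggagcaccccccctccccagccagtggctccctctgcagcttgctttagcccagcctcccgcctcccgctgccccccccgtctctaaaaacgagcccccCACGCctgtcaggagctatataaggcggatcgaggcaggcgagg
Capitals mark matches, on either strand, to the letters searched. These were the CArG box bound by serum response factor, the cAMP response element TGACGTCA, its core TGACG, the cores ACGTG and GCGTG of the hypoxia response element, and GAANNTTC of the heat shock element. TGACGTCA contains TGACG, and the other letters may overlap it. TGACG was found in all 4 *Csrnp1* windows, at −142 (counted in bases from the start site) in the one shown, and at −179 and −169 in that of *Npas4*. It is held by 20.8% of the 32851 promoters listed. ACGTG was found at −202 in *Ier3* and at −191 in the second window of *Csrnp3*, and in 19.6% of all promoters. It also lay 26 bases after the start in 1 *Csrnp1* window. GCGTG was found in windows of *Csrnp1*, *Ier5l* and *Npas4*, and in 32.4% of all promoters. GAANNTTC was found at −183 in *Csrnp2* and −234 in *Ier5l*, against 7.86% of all promoters. None of the 11 windows held a CArG box or TGACGTCA, which 1.63% and 1.79% of all promoters hold, and the *Ier5* window held none of the letters searched. A match is a description of these letters only.

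The values below are the processed signal, a background-subtracted intensity that the authors deposited for each spot. A change is the difference of its log2 value, OGD minus untreated, after the 75th percentile of each array was subtracted. That percentile was 2135 and 2164 untreated, against 887 and 776 under OGD, so a probe could fall in raw signal and rise relative to its array. Spiked-in control RNA shifted by −0.085 on the log2 scale, the mean of 9 of its 10 probes, which ranged singly from −0.75 to 0.28. The change of each member is therefore also given with arrays scaled on these 9 probes. The median change over all 28163 probes tested was 0.18 by the 75th percentile and −1.11 by the spike-in. Against that median, a gene's position was the same under both, since each scaling subtracts 1 number from an array. The methods state a fixed amount of total RNA for labeling. A change by the spike-in is thus relative to the RNA labeled and not to the number of cells. Lower RNA per cell and fewer cells of a type cannot be told apart by either scaling, and what lowered the percentile was not tested. By the methods, wells were seeded from separate cultures made from different pups. The labels do not tie single arrays to pups, so whether an untreated and an OGD sample share a culture is not known here.

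*Csrnp1*, *Arc* and *Ier3* rose after OGD and did so under both scalings, whereas the downstream probe of *Ier5* fell under both. The scanner software marked each of the 10 probes as well above background on each of the 4 arrays, and marked none as saturated. At an adjusted p under 0.05 in limma, 4 probes were called higher, 1 lower and 5 neither, while 38.0% of all probes tested were called higher and 27.1% lower. The limits of the study, an adjusted p under 0.05 and a change over 10-fold, were passed by *Csrnp1* and *Arc*, 2 probes higher and 0 lower. Of all probes 0.813% passed both limits higher and 0.526% lower. In 8 of the 10 probes the normalized signals of the groups did not overlap, 7 higher and 1 lower, where this held for 49.2% of all probes higher and 35.5% lower. The median change over the 10 probes was 0.40.

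**Figure D1:**
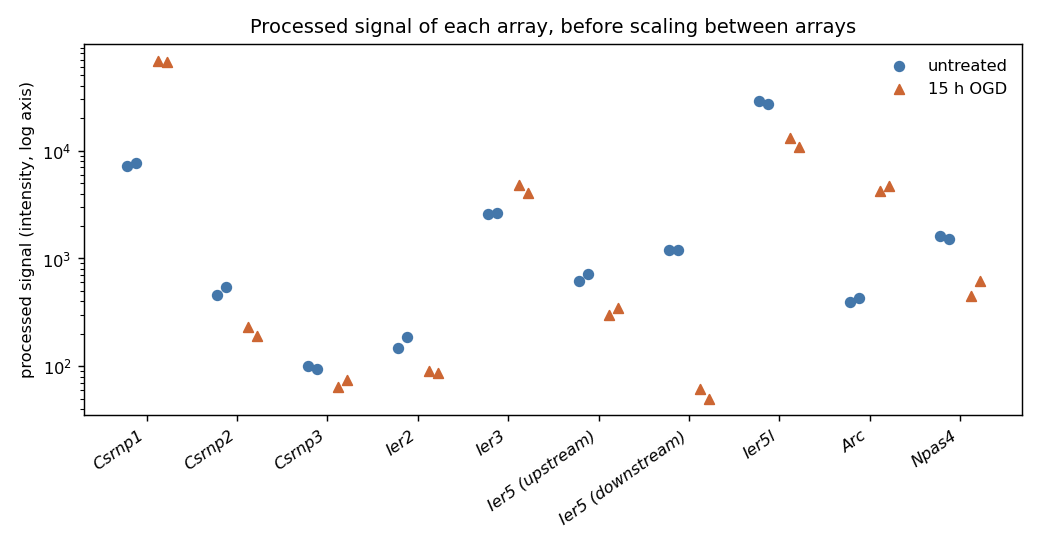
Processed signal (intensity, logarithmic axis) of the 10 probes, with circles for the 2 untreated arrays and triangles for the 2 arrays after 15 h of OGD, before any scaling between arrays. *Csrnp1*, *Arc* and *Ier3* lie higher after OGD already at this stage, and the downstream *Ier5* probe drops from 1196 and 1192 to 61.7 and 50.03.

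*Csrnp1* had a processed signal of 7190 and 7776 in untreated cultures, and OGD gave 68279 and 66113. Both OGD values lay far above both untreated values. Its normalized log2 signal was 1.80 ± 0.066 (SD, n = 2) untreated and 6.34 ± 0.10 (SD, n = 2) under OGD, so that the log2 fold change was 4.54 (standard error, SE, 0.097, 95% interval 4.27 to 4.81, limma adjusted p = 0.000719). This is 23.3-fold, and *Csrnp1* ranked 77 of 28163 probes by its change. With spike-in scaling it was 9.53-fold higher, just under the 10-fold limit.

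The other CSRNP genes stood apart from it. The signal of *Csrnp2* was 458 and 540 untreated, against 230 and 192 under OGD. After scaling the groups overlapped, and the log2 fold change was 0.13 (SE 0.11, limma adjusted p = 0.353, 95% interval −0.18 to 0.44). With normexp background correction it was called higher (0.36, limma adjusted p = 0.0222). *Csrnp3* gave 101 and 93.7 untreated and 64.7 and 75.2 after OGD, a dim signal that fell in raw intensity. Relative to the 75th percentile it was called higher, by 1.86-fold (log2 fold change 0.89, SE 0.17, limma adjusted p = 0.0143). That call was lost with the methods' t-test (adjusted p = 0.0903) and when untreated replicate 1 or 2 was left out (limma adjusted p = 0.0632 and 0.0848). With spike-in scaling *Csrnp2* was at −1.16 and *Csrnp3* at −0.40 (limma adjusted p = 0.00113 and 0.0608). Within each array, log2 *Csrnp1* minus *Csrnp2* differed between the groups by 4.41 and *Csrnp1* minus *Csrnp3* by 3.65, with both OGD arrays above both untreated arrays. An exact two-sided permutation test gave p = 0.333 for each, the smallest that 2 arrays against 2 allow, and 0.5 after Benjamini–Hochberg adjustment over the 6 pairs compared.

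*Arc* had a signal of 392 and 433 untreated, against 4199 and 4661 under OGD. The groups lay wide apart, and the probe was well above background in untreated cultures too. The normalized log2 signal went from −2.38 ± 0.088 (SD, n = 2) to 2.41 ± 0.24 (SD, n = 2). The log2 fold change was 4.80 (SE 0.15, 95% interval 4.37 to 5.22, limma adjusted p = 0.000719), or 27.8-fold, rank 61 of all probes. With spike-in scaling it was 11.4-fold higher, so that *Arc* alone of the 10 probes stayed above the 10-fold limit in the higher direction.

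*Npas4*, the other gene known from active neurons, had a signal of 1612 and 1516 untreated and 445 and 620 after OGD. After scaling the groups overlapped, at a log2 fold change of −0.20 (SE 0.26, 95% interval −0.92 to 0.52, limma adjusted p = 0.523). Its OGD arrays disagreed. Without OGD replicate 1 the value was 0.13 (limma adjusted p = 0.291) and without OGD replicate 2 it was −0.54 (limma adjusted p = 0.0215). With spike-in scaling *Npas4* was lower, at −1.49 (limma adjusted p = 0.00230). *Arc* minus *Npas4* within an array differed by 5.00 between the groups (exact permutation p = 0.333, adjusted 0.5).

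*Ier3* rose from a signal of 2565 and 2642 to 4804 and 4037. Its groups did not overlap, in raw signal or after scaling. The log2 fold change was 2.13 (SE 0.077, 95% interval 1.91 to 2.35, limma adjusted p = 0.000742), or 4.38-fold. With spike-in scaling *Ier3* was 1.79-fold higher (log2 fold change 0.84, limma adjusted p = 0.00141), a change near in size to the largest shift of a single spike-in probe, −0.75.

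*Ier2* had a dim signal of 147 and 188 untreated, against 90.2 and 86.4 under OGD. Relative to the 75th percentile it was 0.46 higher on the log2 scale (SE 0.15), which did not pass (limma adjusted p = 0.0592). It passed as higher under 5 of 16 alternatives, among them normexp background correction (log2 fold change 0.66, adjusted p = 0.000854), and passed as lower with spike-in scaling (−0.83, adjusted p = 0.00723), so that its direction depends on the scaling. *Ier2* minus *Ier3* within an array differed by −1.67 between the groups (exact permutation p = 0.333, adjusted 0.5).

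*Ier5l* had a signal of 29135 and 27152 untreated and 13262 and 10931 after OGD. Its log2 fold change was 0.15 (SE 0.091, limma adjusted p = 0.221, 95% interval −0.11 to 0.41). The groups did not overlap after scaling, with OGD slightly higher. The value turned to −0.41 with quantile normalization (limma adjusted p = 0.0143) and to −1.14 with spike-in scaling.

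**Figure D2:**
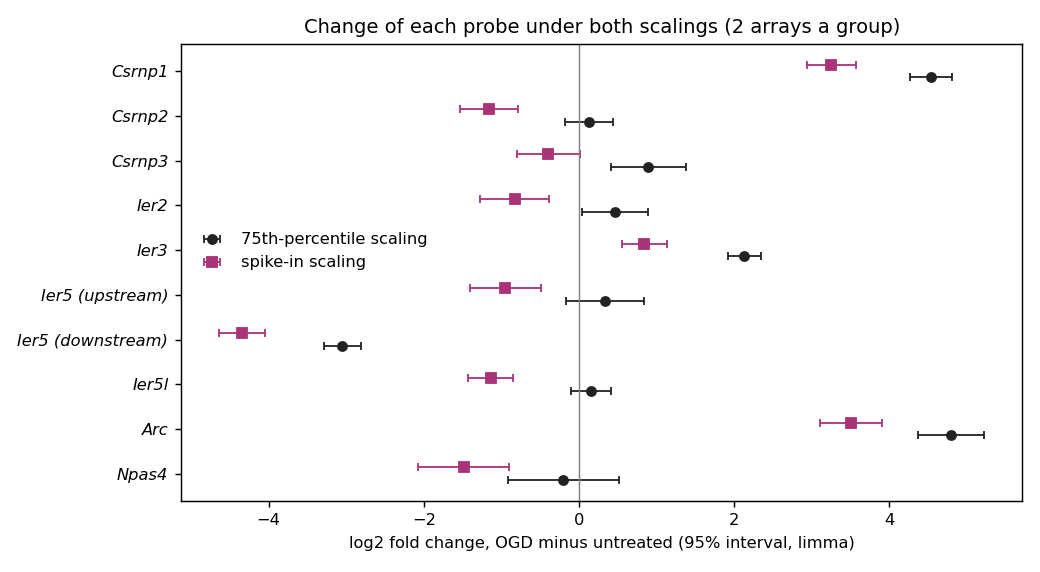
Log2 fold change of each probe, OGD minus untreated (horizontal axis), with its 95% interval from limma (2 arrays a group). Circles show 75th-percentile scaling and squares spike-in scaling, which moves every probe to the left. *Csrnp1*, *Ier3* and *Arc* stay above 0 and the downstream *Ier5* probe below 0 under both, while *Csrnp2*, *Csrnp3*, *Ier2*, the upstream *Ier5* probe and *Ier5l* change sign.

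The probes of *Ier5* parted after OGD. The upstream probe read 618 and 715 untreated, against 301 and 350 under OGD. Its log2 fold change was 0.34 (SE 0.18, limma adjusted p = 0.170), and −0.95 with spike-in scaling (limma adjusted p = 0.00500). It was called higher with normexp background correction (0.44, limma adjusted p = 0.0293) and without OGD replicate 1 (0.54, limma adjusted p = 0.0353). The downstream probe read 1196 and 1192 untreated and 61.7 and 50.03 after OGD. Its normalized log2 signal went from −0.85 ± 0.017 (SD, n = 2) to −3.90 ± 0.078 (SD, n = 2), with no overlap. It was 8.30-fold lower after OGD (log2 fold change −3.05, SE 0.084, 95% interval −3.29 to −2.82, limma adjusted p = 0.000719), and 20.3-fold lower with spike-in scaling. With normexp background correction the log2 fold change was −2.16, and under OGD this probe had the dimmest signal of the 10.

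These probes lie 2235 bases apart in the same transcript. Within each array, the log2 signal of the downstream probe minus that of the upstream one was 0.95 and 0.74 in untreated cultures and −2.29 and −2.81 after OGD. The difference changed by −3.39 (exact permutation p = 0.333), and by −2.60 with normexp background correction. The comparison was chosen after the values had been seen. Of 871 genes with probes more than 2000 bases apart, 26 had a more negative difference, and the median over these genes was −0.98 (interquartile range −1.67 to −0.44). A shift to lower downstream signal was thus common on these arrays, and that of *Ier5* was 27th from the lowest. Which value stands for *Ier5* depends on the probe, since the mean over both was −1.36 (limma adjusted p = 0.00161). With the upstream probe, which had the higher mean log2 signal over the 4 arrays though not the higher mean intensity, *Ier2* minus *Ier5* changed by 0.12 and *Ier5* minus *Ier5l* by 0.19 within an array (exact permutation p = 0.667 each, adjusted 0.667).

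**Figure D3:**
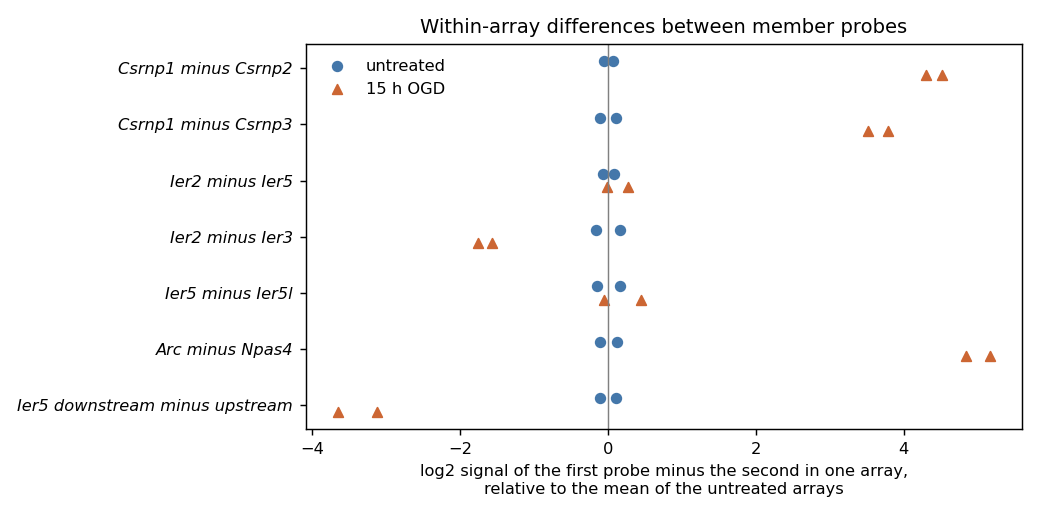
Within-array log2 difference between the probes named on the vertical axis, relative to the mean of the untreated arrays (horizontal axis), with circles for untreated arrays and triangles for arrays after 15 h of OGD. *Arc* minus *Npas4* moves by 5.00 and *Csrnp1* minus *Csrnp2* by 4.41, and the downstream minus the upstream probe of *Ier5* moves by −3.39.

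Most other immediate early genes on a list were higher after OGD. The list was chosen with earlier results of these data known, so its counts are not independent of them. Of its 43 genes 42 were tested. At an adjusted p under 0.05 in limma 38 were called higher, 3 lower and 1 neither, and 12 passed both limits. Their median log2 fold change was 2.66, against 0.16 over all 20981 genes with 1 probe each, of which 37.1% were called higher and 27.9% lower. With spike-in scaling the median was 1.37 and 30 genes were above 0. The largest increase was that of *Nr4a3*, which encodes an orphan nuclear receptor (log2 fold change 7.40, spike-in 6.11). The largest decrease was that of *Klf2*, a Krüppel-like factor (−0.92, spike-in −2.21). Among these 42 genes 5 had a larger log2 fold change than *Arc*, 6 than *Csrnp1* and 26 than *Ier3*.

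Of 21 factors that act on promoters of immediate early genes, all tested, 11 were called higher, 6 lower and 4 neither in limma, with a median of 0.30. Over all genes 37.1% were called higher and 27.9% lower, the latter near the share of these factors called lower. *Creb1*, which binds the cAMP response element, had the largest increase (log2 fold change 1.23), and *Crtc1*, a coactivator of CREB, the largest decrease (−2.001, spike-in −3.29). With spike-in scaling 0 of the 21 were above 0, *Creb1* being at −0.05. Among 19 proteins that bind the member proteins or belong to the heat shock response, 18 were on the array and 17 were tested, of which 9 were called higher, 3 lower and 5 neither, beside 37.1% higher and 27.9% lower over all genes, and 2 were above 0 with spike-in scaling. *Hspa1a*, a heat shock protein, rose 46.3-fold (log2 fold change 5.53, spike-in 4.24). Its near-identical copy *Hspa1b* may bind the same probe. *Arnt*, a partner of PAS-domain factors such as NPAS4, was lowest of those called (−0.67, spike-in −1.96).

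**Figure D4:**
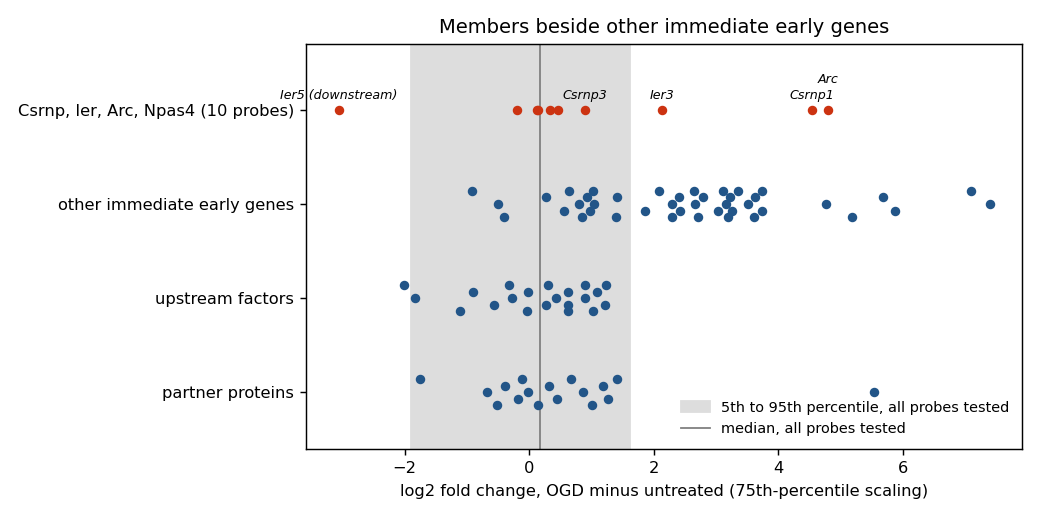
Log2 fold change, OGD minus untreated, with 75th-percentile scaling (horizontal axis). Points are the 10 member probes, with the called ones named, and the genes of 3 further lists, and the grey band runs from the 5th to the 95th percentile of all probes tested (−1.90 to 1.62). *Arc*, *Csrnp1* and *Ier3* lie to the right of the band among the other immediate early genes and the downstream *Ier5* probe lies to its left.

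The genes whose values over the 4 arrays were most like those of *Arc* were *Otud1*, a deubiquitinase, *Grem1*, an antagonist of bone morphogenetic proteins, and *Ern1*, a sensor of unfolded proteins in the endoplasmic reticulum. Their distances from *Arc*, the Euclidean distance of log2 signals after the mean of each probe was removed, were 0.079, 0.12 and 0.15, the smallest among 18329 genes compared. Their log2 fold changes were 4.83, 4.78 and 4.80, beside 4.80 for *Arc*. With 2 arrays a group, a small distance mainly reflects a similar fold change, and shared regulation was not tested.

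Markers of the labeled cells were present. The counts of markers called stand beside 37.1% called higher and 27.9% lower over all genes. Each array read all 11 astrocyte markers well above background. Their summed level, on a linear scale relative to the 75th percentile, was 177 and 157 in untreated cultures and 233 and 239 after OGD. Of these 6 were called higher and 2 lower in limma, with *Gfap* at a log2 fold change of 0.72 (spike-in −0.56), *Sox9* at −1.52 and *Fgfr3* at −0.54. Beside *Arc* and *Npas4*, 8 of 12 neuron markers were well above background on all arrays, with a summed level of 30.01 and 32.0 untreated and 32.3 and 35.5 after OGD. *Stmn2*, at a log2 fold change of 0.13, made up most of that sum. Of 10 neuron markers tested 3 were called higher and 3 lower in limma, with a median of −0.08, *Gad1* at 1.32 (spike-in 0.03) and *Syt1* at −0.60. *Slc17a7* was well above background on no array, and *Rbfox3*, called lower, on the 2 untreated arrays. The summed level of 9 microglia markers, 6 of them well above background on all arrays, was 2.07 and 2.35 untreated and 6.54 and 6.76 after OGD. Most of that rise was in *Cd68*, a lysosomal protein, at a log2 fold change of 3.14. Of the 9 markers 3 were called higher and 2 lower, with *Aif1* at 1.03 (spike-in −0.26), *Tmem119* at −0.88 and a median of 0.18. That of 5 fibroblast markers with a value on each array was 11.1 and 13.0 untreated and 8.36 and 10.9 after OGD, with 0 called higher and 2 lower in limma, *Col3a1* and *Pdgfrb*, the latter at −2.42. Of 9 oligodendrocyte markers 4 were called higher and 3 lower, with a median of 0.14. *Olig2* was at −2.50, whereas *Ermn* was at 1.21 and *Mbp* at 1.19 (spike-in −0.08 and −0.10). Of 3 markers of NG2 glia, *Pdgfra* was called lower (−1.27) and *Cspg4* higher (0.88, spike-in −0.41). The 3 endothelial markers tested had a median of −0.01. With spike-in scaling 0 of 11 astrocyte, 1 of 10 neuron and 1 of 9 microglia markers tested were above 0. The part of other cell types in the values of *Arc*, *Npas4* and the other genes was not tested. The software marked 73.7% and 73.0% of spots as well above background on untreated arrays and 66.2% and 64.5% after OGD.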

How the data were processed

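Single-color arrays of 2 untreated and 2 OGD cultures were compared, grouped by the labels. The authors deposited an intensity per spot, the processed signal of Agilent Feature Extraction (11.5.1.1 per the labels), with background subtracted within the array and no scaling between arrays. Log2 was taken, outlier spots were left out and spots of a probe were averaged. The 75th percentile of each array was then subtracted, a scaling that the study's methods also state. The 28163 probes that were well above background (at least a fraction of 0.5 of their spots) on both arrays of at least 1 group, and had a value on every array, were tested with lmFit and eBayes (limma 3.58.1, R 4.3.3) and Benjamini–Hochberg adjustment. Where 1 value stood for a gene, its probe with the highest mean log2 signal was used. Older gene symbols were matched through RefSeq synonyms. Precision rests on 2 arrays a group, since arrays give no read depth.

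Member genes and lists were chosen with earlier results of these data known. Named genes were all members, the largest called increase and decrease of each list, the 3 genes most like *Arc*, and *Gfap*, *Rbfox3* and *Aif1*. *Hspa1b* and the other single markers were named after their values were seen. The alternatives were the methods' t-test, a trend and robust prior, a replicate block, normexp, quantile, median and spike-in scaling, other filters, outlier spots kept, the deposited table of the series, each array left out, and the mean over probes. Steps were tested on simulated data. Figures were drawn with matplotlib 3.10.9.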

Additional observations from a re-analysis of the deposited data

How the results depend on the processing

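*Csrnp1*, *Ier3* and *Arc* were called higher under each of the 16 alternatives run. The downstream *Ier5* probe was called lower under each of them except the mean over a gene's probes, where it has no value of its own. Normexp background correction called 7 member probes higher in place of 4. It gave −2.60 for the difference between the *Ier5* probes, 4.13 for *Csrnp1* minus *Csrnp2*, −1.34 for *Ier2* minus *Ier3* and 4.74 for *Arc* minus *Npas4*. Quantile normalization called 2 member probes lower, turned *Ier5l* to −0.41, and gave 3.79 for *Csrnp1* minus *Csrnp2*, 3.08 for *Csrnp1* minus *Csrnp3* and 0.82 for *Ier5* minus *Ier5l*. Spike-in scaling called 6 member probes lower, with 1 higher and 1 lower past both limits, and turned *Csrnp2* to −1.16, *Csrnp3* to −0.40, *Ier2* to −0.83, the upstream *Ier5* probe to −0.95 and *Ier5l* to −1.14. It called 9 other immediate early genes lower, 0 upstream factors higher and 17 lower, and 1 partner higher and 12 lower. The median change over all probes tested was −1.11 with spike-in scaling, so most probes were lower there. The shares of 38.0% and 27.1% over all probes belong to the main fit. No such share is given for the alternatives, so their counts are not read as results about the genes. The methods' t-test called 6 upstream factors higher. The mean over a gene's probes called 0 partners lower, turned *Ier5* to −1.36, gave 1.82 for *Ier2* minus *Ier5* and turned *Ier5* minus *Ier5l* to −1.51.

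Leaving out each array in turn, with the lone array taken to vary as much as the other group does, gave 3 to 5 member probes higher and 1 to 2 lower, the lower count being 2 without OGD replicate 2. Without untreated replicate 1 or 2 other immediate early genes called lower numbered 1 and partners called lower 1, and upstream factors called higher numbered 6 and 5. Over the 4 arrays left out, these counts ran from 1 to 3, from 1 to 4 and from 5 to 11. *Npas4* was at 0.13 without OGD replicate 1 and −0.54 without OGD replicate 2. Apart from the scaling itself, the cause of these changes was not tested.

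The deviations of same-numbered arrays were nearly uncorrelated over probes (r = −0.06). With 2 arrays a group this cannot settle whether same-numbered samples share a culture. With the replicate number as a block, *Ier2* passed (adjusted p = 0.0435 in limma) and no other member call changed. The signal over background limits *Csrnp3* and *Ier2*, the dimmest untreated probes among the members, and the downstream *Ier5* probe, the dimmest under OGD, whose log2 fold change was −2.16 with normexp.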
